A study of Equus caballus with 15 samples.

Results

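The interferon gamma and interleukin 12 axis was examined in equine macrophage cultures through 10 genes, taken by their symbols from the 16932 genes listed: the type 1 cytokine IFNG, its receptor chains IFNGR1 and IFNGR2, the cytokine chains IL12A, IL12B, IL23A and EBI3, the receptor chains IL12RB1 and IL12RB2, and the transcription factor TBX21. All 10 were found, each on 1 row, and 9 of the 10 averaged 1 CPM or more (counts scaled to the library total) and were tested, while IL12B did not.

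Macrophages were grown for 5 days with human M-CSF at 30 ng/ml from the blood mononuclear cells of 2 horses. Untreated cultures received neither IL-1ß nor an orthobiologic. The other 4 groups received IL-1ß at 10 ng/ml for 24 h, a cytokine that activates macrophages in osteoarthritic joints, and 3 of these also received an orthobiologic therapy making up 25% of the medium: conditioned medium of mesenchymal stromal cells (MSC-CM), lysate of platelet rich plasma (PRP lysate) or autologous conditioned serum (ACS, also labelled IRAP). Each of the 5 groups held 3 libraries of polyadenylated RNA. No source used here says whether the cells of the 2 horses were pooled, and the labels do not say which donor a library came from: the ACS titles carry names in place of numbers, and what these mark is not stated. Per the study, the orthobiologic libraries were biological replicates with products from 3 donor horses, and the untreated and IL-1ß libraries were technical replicates. The control groups may therefore hold technical spread only. The reported fit pooled the spread over all 15 libraries, so its p-values rest on a mix of technical spread and spread between product donors. Whether a replicate number marks a donor horse is not stated. Cells were lysed after the wash that ended treatment per the labels, and after a further day of culture per the study's methods.

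In textbook terms, IL-12 is made by activated myeloid cells from the chains p35 (IL12A) and p40 (IL12B), and acts through IL12RB1 and IL12RB2 on T and NK cells, where the factor T-bet (TBX21) helps switch on IFNG. IFN-γ then acts on macrophages through IFNGR1 and IFNGR2 and raises antigen presentation, chemokine and guanylate binding protein genes. The p40 chain also pairs with p19 (IL23A) to form IL-23, and EBI3 pairs with p28 (IL27) to form IL-27.

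The libraries held between 28410735 and 47894071 reads counted on genes, and of the 10 genes only IL12B lay near the limit of detection. IL-1ß replicate 3 and PRP lysate replicate 1 stood apart from the rest, with a median distance over all tested genes to the other libraries of 125.9 and 87.3 log2 units, against 47.4 to 59.1 for the other 13 libraries. Results that rest on these libraries are given with and without them.

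The labelled cell type was checked first, because IFNG and its IL-12 receptors are mainly lymphocyte genes. All 11 macrophage markers were detected in every library, with CD68 at 1340 to 2157 CPM and MRC1 at 515 to 3394 CPM, although CD14 reached only 1.38 to 4.32 CPM. All 12 T cell markers were also detected in every library, CD3E at 140 to 520 CPM, and so were the 8 listed NK and cytotoxic markers, NKG7 at 52.4 to 354 CPM. Lymphocyte transcripts were thus measured beside those of macrophages in all 15 libraries. In bulk libraries fewer cells of a type and less RNA per cell cannot be told apart.

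IFNG, the gene of IFN-γ, was higher in macrophage cultures given PRP lysate or ACS than in those given IL-1ß alone or MSC-CM, and was the only member called in any comparison. It measured 9.50, 7.40 and 12.6 CPM in the untreated libraries, 10.4, 9.63 and 7.71 CPM with IL-1ß, and 7.70, 12.9 and 8.07 CPM with MSC-CM. It measured 30.1, 36.1 and 43.0 CPM with PRP lysate and 22.0, 16.7 and 22.3 CPM with ACS. Every PRP lysate and ACS library lay above all 9 libraries of the other groups, and every PRP lysate library lay above every ACS library. The group means were 36.4 ± 6.46 CPM with PRP lysate, 20.3 ± 3.13 with ACS, 9.82 ± 2.60 untreated, 9.57 ± 2.92 with MSC-CM and 9.24 ± 1.37 with IL-1ß (SD, n = 3 each). The last 3 of these means differed by less than the spread within each group. The gene (ENSECAG00000028288) lies on chromosome 6, 84510150 to 84513296, in EquCab3.0.

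**Figure D1:**
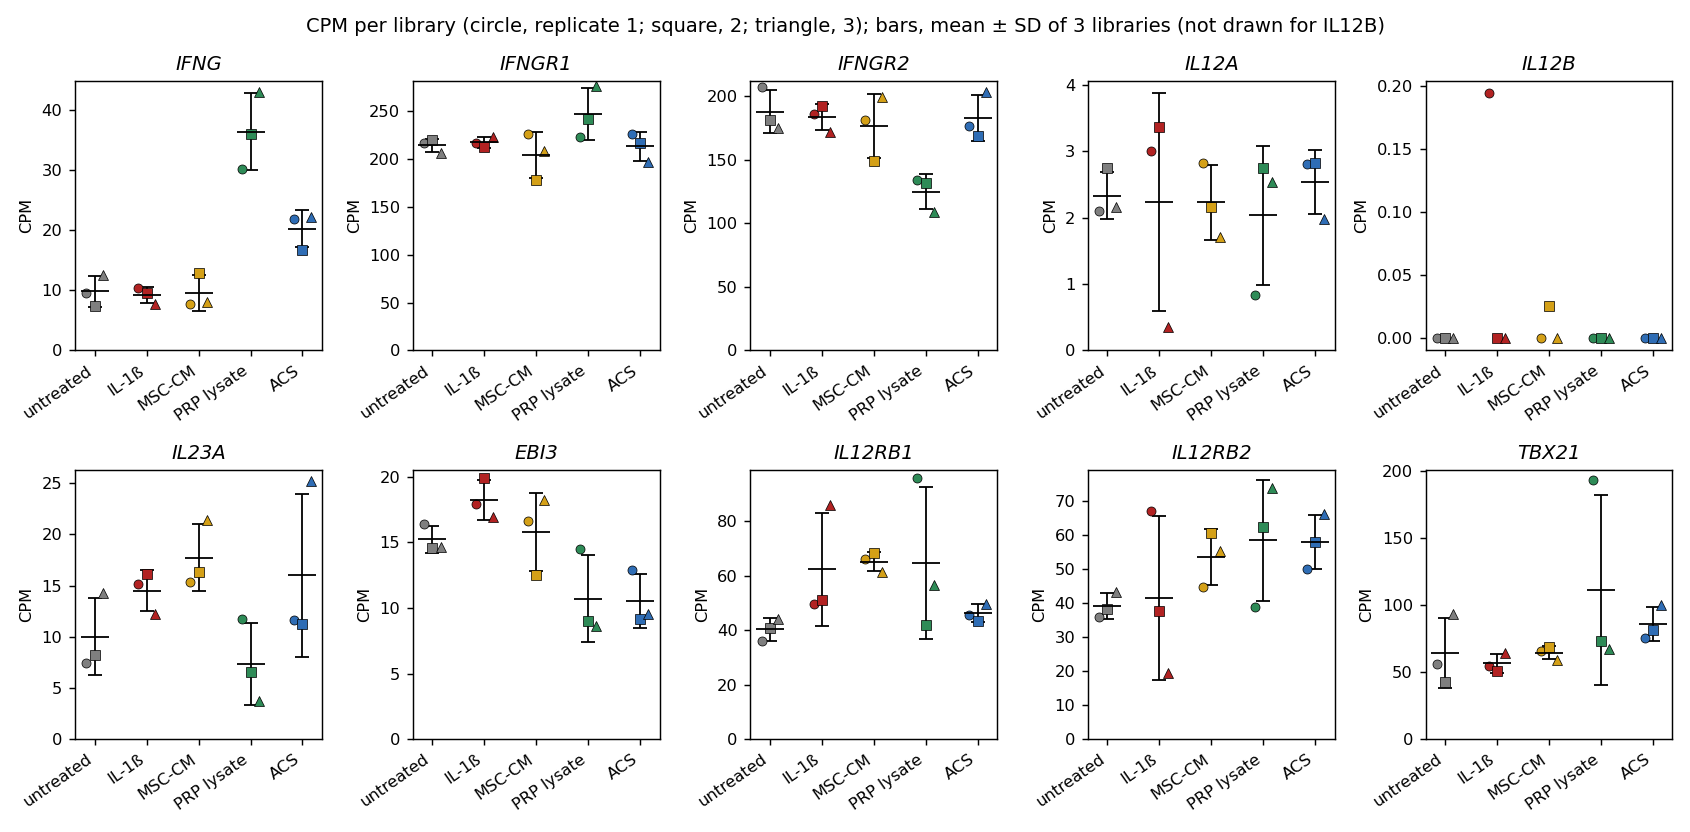
CPM (y axis, linear from 0 except for IL12B) of the 10 genes in the 15 libraries, grouped by condition; symbols mark the replicate number, horizontal lines the mean and bars ± 1 SD of 3 libraries. IFNG lies between 30.1 and 43.0 CPM with PRP lysate and between 16.7 and 22.3 CPM with ACS, above the 7.40 to 12.9 CPM of the other 9 libraries, while IL12B is at 0 in 13 libraries.

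Differences were tested with limma on log2(CPM + 1) over the 11628 genes that averaged 1 CPM or more, with Benjamini-Hochberg adjustment. A gene was called at an adjusted p of at most 0.05 and a change of at least 2-fold. On this scale IFNG was higher with PRP lysate than with IL-1ß by 1.87 ± 0.24 (log2 fold change ± standard error, limma adjusted p = 0.000539), so that 1 of 9 tested members was called where 3.09% of all tested genes were. It was higher with ACS than with IL-1ß by 1.06 ± 0.24 (limma adjusted p = 0.0291), where 2.21% of all tested genes were called. The PRP lysate difference held in every alternative run, between 1.74 and 1.99. The ACS difference kept its direction but lay near both thresholds: it fell to 0.94 after scaling by RLE size factors and 0.96 by TMM factors, each under 2-fold. Of the 6 fits that each left out 1 of the IL-1ß or ACS libraries, the 5 without IL-1ß replicate 2 or 3 or ACS replicate 1, 2 or 3 did not call it, with log2 fold changes between 0.94 and 1.18 and adjusted p-values between 0.0629 and 0.127. Without the pair of libraries that stood apart, the difference was 1.88 with PRP lysate (limma adjusted p = 0.000615) and 0.94, under 2-fold, with ACS (limma adjusted p = 0.0336).

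Against MSC-CM, the same PRP lysate libraries were higher in IFNG by 1.84 ± 0.24 (limma adjusted p = 0.000673), the only member called where 2.61% of all tested genes were. With the replicate number as a block, shared by the untreated, IL-1ß, MSC-CM and PRP lysate libraries, the IFNG difference remained called (limma adjusted p = 0.0184). The genes called fell from 304 to 171. That fit is not a paired test of PRP lysate against MSC-CM, and the correlations of their libraries do not show that the numbers pair them. ACS was higher than MSC-CM by 1.03 ± 0.24 (limma adjusted p = 0.0436), where 1.23% of tested genes were called. That call was lost in the fits without MSC-CM replicate 1 or 3 or ACS replicate 1, 2 or 3, at log2 fold changes between 0.91 and 1.16, and it was also lost without the filter on low values (adjusted p = 0.0623). IFNG was 0.81 ± 0.24 higher with PRP lysate than with ACS and did not pass (limma adjusted p = 0.433, 95% interval 0.30 to 1.32), in a comparison where 0.0946% of genes and no member were called. Of the members, 3 (IFNG, IFNGR2 and IL23A) had an unadjusted p of at most 0.05 there, and edgeR and DESeq2 called 0.

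IFNG did not differ detectably between IL-1ß and untreated cultures, or between MSC-CM and IL-1ß. The first difference was -0.06 ± 0.24 (limma adjusted p = 0.907, 95% interval -0.57 to 0.45), and no member was called by limma, edgeR or DESeq2 where limma called 0.292% of all genes, with 1 member (IL12RB1) at an unadjusted p of at most 0.05. The second was 0.02 ± 0.24 (limma adjusted p = 0.977, 95% interval -0.49 to 0.53), with no member called by any of the 3 tools, 0% of genes called by limma and 0 members at an unadjusted p of at most 0.05. Neither has a stable sign, since the first was 0.05 without the pair of libraries that stood apart and the second was -0.14 after RLE scaling, which moved the all-gene median of that comparison from 0.16 to 0.00488. All comparisons with the IL-1ß group share its 3 libraries, and those with MSC-CM likewise.

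**Figure D2:**
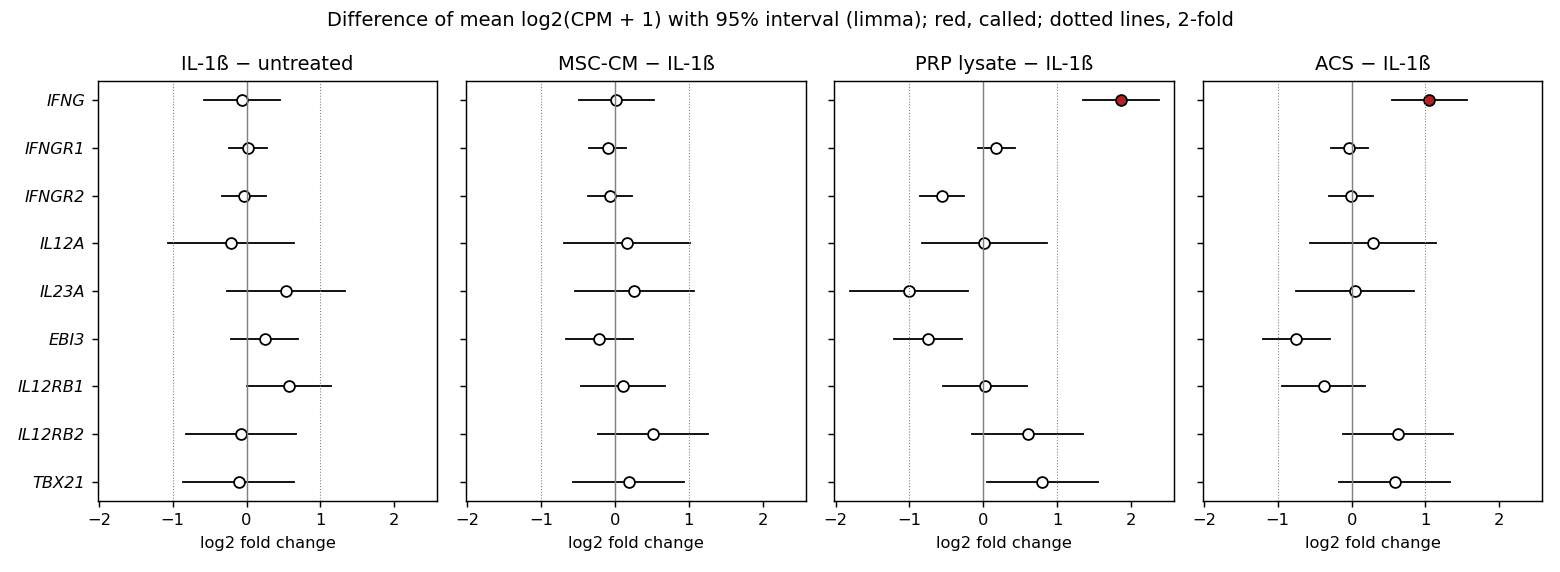
Log2 fold change (x axis, difference of mean log2(CPM + 1)) with its 95% interval from limma for the 9 tested genes in 4 comparisons; red points are called, and dotted lines mark 2-fold. IFNG is the only red point, at 1.87 for PRP lysate and 1.06 for ACS against IL-1ß.

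The summed T cell markers did not follow IFNG across the groups, and the NK and cytotoxic markers moved in both directions with PRP lysate. T cell markers summed to 1254 to 1542 CPM in the ACS libraries, below the 1616 to 2422 CPM of the IL-1ß libraries and the 2119 to 2197 CPM of the MSC-CM libraries, although IFNG was higher with ACS. With PRP lysate they summed to 1303 to 2490 CPM, overlapping both. The sum includes CD4, which is also on macrophages, at 249, 265 and 266 CPM with ACS against 454, 403 and 250 with IL-1ß. It is therefore not a measure of T cells alone. Of the 12 markers, 11 were lower with ACS than with IL-1ß. The libraries of 1 marker lay wholly below and those of 1 wholly above, where 26.2% of all tested genes did not overlap. NK and cytotoxic markers summed to 531 to 1292 CPM with PRP lysate, 431 to 660 with ACS, 401 to 858 with IL-1ß, 507 to 612 with MSC-CM and 330 to 530 untreated. These ranges overlapped, except that every PRP lysate library lay above every untreated one, the closest at 531.5 and 529.8 CPM. The granzyme gene GZMA measured 184, 127 and 165 CPM with PRP lysate and 97.4, 91.7 and 127 with ACS, against 66.7, 78.8 and 108 with IL-1ß, 81.5, 83.2 and 72.1 with MSC-CM and 87.1, 50.1 and 74.2 untreated. Its PRP lysate libraries lay above all IL-1ß libraries (log2 fold change 0.91, limma adjusted p = 0.0374, under 2-fold) and its ACS libraries overlapped them (0.33, limma adjusted p = 0.358). CD7, a surface protein of T and NK cells on the same list, was called lower with PRP lysate, at 32.6, 32.8 and 17.3 CPM against 68.0, 76.8 and 102 with IL-1ß (log2 fold change -1.58, limma adjusted p = 0.0162). NCR1, an activating receptor of NK cells, averaged 1.73 CPM with PRP lysate against 4.55 with IL-1ß, and these groups overlapped. Of the 8 NK and cytotoxic markers, 6 were higher and 2 lower with PRP lysate than with IL-1ß, and CD7 was the 1 that limma called. There edgeR also called 1 and DESeq2 2. PRP lysate replicate 1 held the highest sum of both lists and the lowest IFNG of its group.

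Some markers of other cells shifted in the groups where IFNG was higher. The 9 dendritic cell markers summed to 649 to 881 CPM with PRP lysate and 634 to 996 with ACS, against 454 to 525 with IL-1ß and 410 to 513 with MSC-CM, and to 448 to 715 untreated. CD83, also an activation marker, carried that sum: it averaged 476 CPM with PRP lysate and 497 with ACS against 232 with IL-1ß, and limma called it higher in both (log2 fold changes 1.05 and 1.10). With ACS neither edgeR nor DESeq2 called any dendritic cell marker, where 2 had an unadjusted limma p of at most 0.05. Of the 6 markers tested, 3 were higher and 3 lower with PRP lysate than with IL-1ß (median -0.08), and 4 were higher and 2 lower with ACS (median 0.14, beside 0.13 over all genes). FLT3 was called lower with PRP lysate (-1.52), LAMP3 averaged 1.49 CPM against 5.36, and the defining markers CLEC9A and CD1C were at 0 in 14 and 12 libraries. Macrophage markers summed to 2613, 4677 and 4862 CPM with PRP lysate, the lowest in replicate 1, to 4263 to 5702 with ACS, 4643 to 7272 with IL-1ß and 4922 to 6176 with MSC-CM, and the PRP lysate and ACS ranges overlapped that of IL-1ß. The scavenger receptor CD163 was called lower with PRP lysate (-5.50) and ACS (-3.12). LYZ, MARCO and AIF1 on that list were also called lower with PRP lysate than with IL-1ß (-1.72, -1.43 and -1.37). Endothelial markers summed to 52.5 to 81.7 CPM with PRP lysate and 101 to 131 with ACS, against 246 to 504 with IL-1ß and 178 to 396 with MSC-CM. PECAM1, which leukocytes also express, made up nearly all of that sum, at an average of 63.7 CPM with PRP lysate and 400 CPM with IL-1ß. CDH5, the endothelial cadherin, measured 2.47, 8.03 and 7.88 CPM with PRP lysate against 1.53, 2.83 and 1.76 with IL-1ß, a difference in the other direction that limma did not call (adjusted p = 0.0859). Of the endothelial markers, limma and edgeR called 1 there and DESeq2 2. Platelet markers summed to 12.2 to 41.1 CPM with PRP lysate and 10.6 to 17.7 with ACS, against 11.6 to 13.7 with IL-1ß and 6.35 to 8.36 with MSC-CM. The part of these marker shifts, GZMA and CD7 included, in the IFNG difference was not tested.

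**Figure D3:**
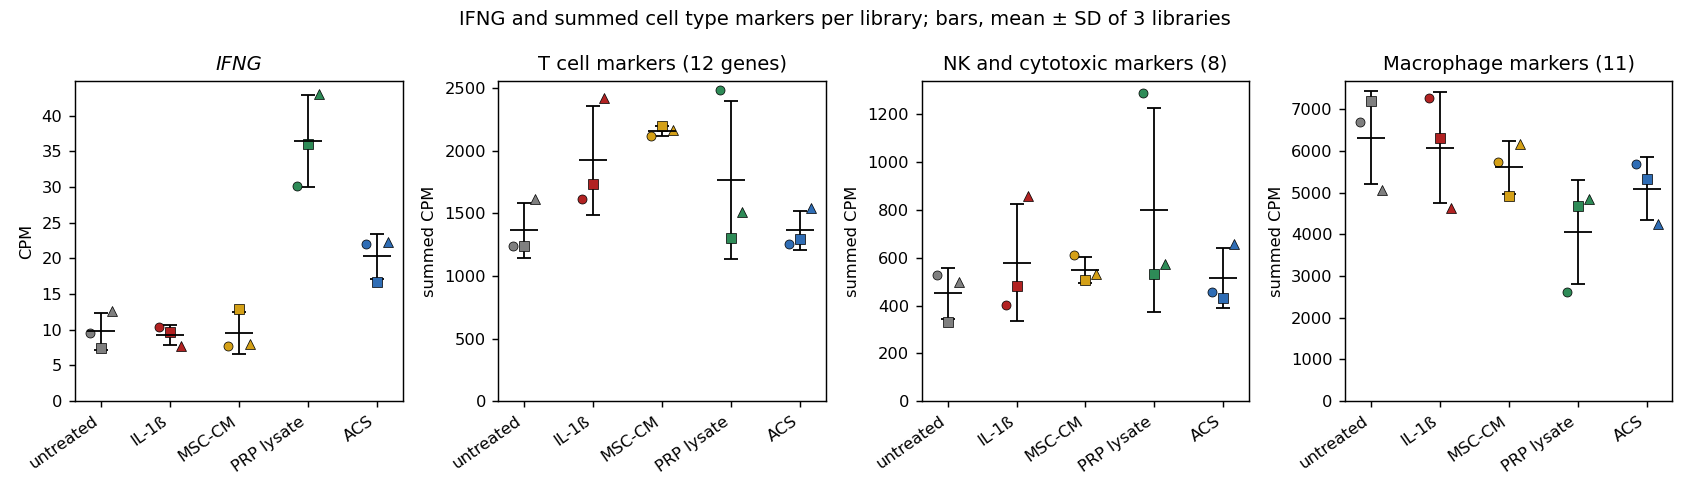
IFNG (CPM) and the summed CPM of 12 T cell, 8 NK and cytotoxic and 11 macrophage markers (y axes, linear from 0) in each library, with the mean ± SD of 3 libraries per condition. IFNG is highest with PRP lysate, while the T cell sum is 1303 to 2490 CPM there and 1254 to 1542 CPM with ACS, against 1616 to 2422 CPM with IL-1ß.

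Of the receptor chains of IFN-γ, none was called, and IFNGR2 was lower with PRP lysate without reaching a 2-fold change. IFNGR1, the ligand-binding chain (ENSECAG00000009347, chromosome 10, 83733253 to 83751645), measured 217, 219 and 207 CPM untreated, 217, 212 and 223 with IL-1ß, 226, 178 and 208 with MSC-CM, 226, 216 and 197 with ACS, and 223, 242 and 276 with PRP lysate. The PRP lysate libraries lay above the untreated ones, a pair of groups that was not among the 7 comparisons. Of those 7, the widest contrast of its means, PRP lysate over MSC-CM, was 0.27 ± 0.12 and did not pass (limma adjusted p = 0.284).

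IFNGR2, the signalling chain (ENSECAG00000014660, chromosome 26, 31289964 to 31317321), measured 134, 131 and 109 CPM with PRP lysate, below all 12 other libraries: 207, 182 and 175 CPM untreated, 186, 192 and 172 with IL-1ß, 181, 149 and 200 with MSC-CM, and 177, 169 and 204 with ACS. The difference from IL-1ß was -0.56 ± 0.14 (limma adjusted p = 0.0331). That passed the adjusted p but not the 2-fold change, so without a fold threshold 2 of 9 members passed where 4.94% of all tested genes did. The adjusted p rose above the threshold without IL-1ß replicate 1 (0.0624) or 2 (0.111), without PRP lysate replicate 2 (0.0659) or 3 (0.146), and with the 2 groups fitted alone (0.387). It was 0.0163 at -0.66 without the pair of libraries that stood apart. Against MSC-CM the difference was -0.49 ± 0.14 (limma adjusted p = 0.0631) and against ACS -0.55 ± 0.14 (limma adjusted p = 0.263).

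Of the chains of IL-12 itself, IL12A was detected at low levels and IL12B hardly at all. IL12B, the p40 chain shared by IL-12 and IL-23 (ENSECAG00000012803, chromosome 14, 19326161 to 19334664), was at 0 in 13 libraries and was not tested. It measured 0.195 CPM in IL-1ß replicate 1, which is 7 reads, and 0.0257 CPM in MSC-CM replicate 2, which is 1 read. A count of 0 allows up to 3 reads, or 0.0626 to 0.106 CPM depending on the depth of the library, for counting error only, so a 0 does not show that the transcript was absent. IL12A, the p35 chain (ENSECAG00000024671, chromosome 19, 3772919 to 3778748), was detected in every library at low levels, from 0.346 to 3.36 CPM. Its lowest values were 0.346 CPM (10 reads) in IL-1ß replicate 3 and 0.833 CPM (31 reads) in PRP lysate replicate 1, the libraries that stood apart, and the other 13 lay between 1.71 and 3.36 CPM. The groups overlapped in all comparisons and none passed the test.

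IL23A, the p19 chain of IL-23 (ENSECAG00000022310, chromosome 6, 74883085 to 74884609), was lowest in the PRP lysate libraries, without passing the test. It measured 11.7, 6.57 and 3.73 CPM there, against 15.2, 16.1 and 12.2 with IL-1ß, 15.4, 16.3 and 21.4 with MSC-CM, 11.6, 11.2 and 25.2 with ACS and 7.48, 8.24 and 14.3 untreated. The PRP lysate libraries lay below every IL-1ß and MSC-CM library and overlapped those of ACS and the untreated group. The differences were -1.0 ± 0.37 from IL-1ß (limma adjusted p = 0.163), -1.27 ± 0.37 from MSC-CM (limma adjusted p = 0.0812) and -1.05 ± 0.37 from ACS (limma adjusted p = 0.697). Without PRP lysate replicate 1 the first and second reached -1.37 (limma adjusted p = 0.0405) and -1.63 (limma adjusted p = 0.0197) and were called, so these calls turn on that library.

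EBI3, the partner chain of IL-27 (ENSECAG00000018667, chromosome 7, 2990329 to 2998782), was lower with PRP lysate and ACS by similar amounts that did not pass. It measured 18.0, 19.9 and 16.9 CPM with IL-1ß, 14.5, 9.01 and 8.62 with PRP lysate, 12.9, 9.19 and 9.54 with ACS, 16.7, 12.5 and 18.2 with MSC-CM and 16.4, 14.6 and 14.7 untreated. Every PRP lysate and ACS library lay below every IL-1ß library. The differences from IL-1ß were -0.75 ± 0.21 with PRP lysate (limma adjusted p = 0.0631), -0.75 ± 0.21 with ACS (limma adjusted p = 0.0748) and -0.21 ± 0.21 with MSC-CM (limma adjusted p = 0.728), and PRP lysate lay -0.54 ± 0.21 from MSC-CM (limma adjusted p = 0.225). Without the pair of libraries that stood apart, the PRP lysate difference was -1.02 (limma adjusted p = 0.0057) and was called, and the ACS difference was -0.80 (limma adjusted p = 0.0207), under 2-fold. EBI3 overlaps the listed gene ANKRD24 and the strand setting of the counting is not stated, so reads of the pair may be shared between them and its values are uncertain.

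The receptor chains of IL-12 were not called in any comparison with all 15 libraries. IL12RB1, the chain shared with the IL-23 receptor (ENSECAG00000021961, chromosome 21, 3433065 to 3450296), measured 35.8, 40.9 and 44.2 CPM untreated, 49.7, 51.0 and 85.9 with IL-1ß, 65.9, 68.1 and 61.2 with MSC-CM, 45.4, 43.2 and 49.7 with ACS, and 95.8, 41.9 and 56.5 with PRP lysate. Its highest values, 95.8 and 85.9 CPM, belonged to PRP lysate replicate 1 and IL-1ß replicate 3, where the T cell sum was also highest, at 2490 and 2422 CPM. All 3 IL-1ß libraries exceeded all untreated ones, by 0.57 ± 0.26 (limma adjusted p = 0.381), or 0.32 without the pair of libraries. ACS differed from IL-1ß by -0.38 ± 0.26 (limma adjusted p = 0.355), or -0.13 without them.

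IL12RB2, the chain specific to the IL-12 and IL-35 receptors (ENSECAG00000016537, chromosome 5, 90724836 to 90798326), ranged from 19.5 to 67.2 CPM within the IL-1ß group alone, with 37.8 CPM in its replicate 2. It measured 35.8, 38.2 and 43.2 CPM untreated, 44.6, 60.6 and 55.3 with MSC-CM, 50.0, 57.8 and 66.1 with ACS, and 39.0, 62.4 and 73.9 with PRP lysate. The groups overlapped the IL-1ß libraries in each case. The differences from IL-1ß were 0.51 ± 0.35 with MSC-CM, 0.63 ± 0.35 with ACS and 0.60 ± 0.35 with PRP lysate (limma adjusted p = 0.705, 0.285 and 0.411). They were 0.07, 0.19 and 0.42 without the pair of libraries that stood apart, and the ACS difference was called, at 1.05 (limma adjusted p = 0.0438), only in the fit without IL-1ß replicate 1.

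TBX21, the gene of T-bet (ENSECAG00000018160, chromosome 11, 23998627 to 24009623), was highest in a single PRP lysate library. It measured 193, 73.3 and 67.2 CPM with PRP lysate, 75.6, 81.2 and 99.9 with ACS, 54.7, 50.6 and 64.2 with IL-1ß, 65.6, 68.4 and 59.0 with MSC-CM and 55.9, 42.8 and 93.3 untreated. All PRP lysate and ACS libraries lay above all IL-1ß libraries. The differences were 0.80 ± 0.35 with PRP lysate (limma adjusted p = 0.250) and 0.59 ± 0.35 with ACS (limma adjusted p = 0.306), and neither was called. PRP lysate replicate 1, at 193 CPM, also held the highest NK and cytotoxic sum, at 1292 CPM, and without that library the PRP lysate difference was 0.32. The part of lymphocyte content in the TBX21 and IL12RB1 values was not tested.

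Counts of members were set beside those of all genes. Members whose libraries did not overlap between groups numbered 2 of 9 for IL-1ß against untreated (EBI3 and IL12RB1, both above), where 16.2% of all genes did not overlap, and 0 of 9 for MSC-CM against IL-1ß, where 8.79% did not. Against IL-1ß they were 2 above (IFNG and TBX21) and 3 below (IFNGR2, IL23A and EBI3) with PRP lysate, against 15% of all genes, and 2 above (IFNG and TBX21) and 1 below (EBI3) with ACS, against 26.2%. Against MSC-CM they were 1 above (IFNG) and 2 below (IFNGR2 and IL23A) with PRP lysate, against 19.4%, and 2 above (IFNG and TBX21) and 1 below (IL12RB1) with ACS, against 35.1%. PRP lysate lay above ACS for IFNG and below it for IFNGR2, against 15.6%. The median log2 fold change of the 9 members was 0.02 with PRP lysate and 0.05 with ACS against IL-1ß, beside 0.11 and 0.13 over all genes tested. A moderated F test over the 5 conditions passed for IFNG alone (limma adjusted p = 0.000937), with 5.40% of all genes passing. The next members were IFNGR2 (limma adjusted p = 0.0652) and EBI3 (limma adjusted p = 0.108).

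Genes that IFN-γ is known to induce moved in part and in both directions. Of 26 such genes 20 were listed and 19 tested. With PRP lysate against IL-1ß, 2 rose, the costimulatory receptor CD40 (1.29 ± 0.18, limma adjusted p = 0.00112) and the transcription factor IRF8 (1.22 ± 0.20, limma adjusted p = 0.00271), and 1 fell, the chemokine CXCL11 (-1.90 ± 0.39, limma adjusted p = 0.0129), where 3.09% of all tested genes were called. With ACS, 3 rose: CD40 (1.52 ± 0.18, limma adjusted p = 0.0011), IRF8 (1.37 ± 0.20, limma adjusted p = 0.00317) and the adhesion molecule ICAM1 (1.01 ± 0.14, limma adjusted p = 0.00222), where 2.21% of all tested genes were called. The list's median was 0.03 with PRP lysate and 0.28 with ACS, beside 0.11 and 0.13 over all genes. With PRP lysate, CD40 and IRF8 were not called with the 2 groups fitted alone (limma adjusted p = 0.0621 and 0.0904), 1 of 16 alternatives for each. The ICAM1 call was lost in 8 of 15 alternatives. It was under 2-fold after RLE (0.89) and TMM (0.91) scaling, in the edgeR (0.91) and DESeq2 (0.89) fits, without IL-1ß replicate 3 (0.93), without ACS replicate 2 (0.93) and without the pair of libraries that stood apart (0.93), and its adjusted p was 0.0557 with the 2 groups fitted alone.

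CD40 measured 158, 190 and 156 CPM with PRP lysate and 218, 205 and 171 with ACS, against 79.4, 67.2 and 59.2 with IL-1ß, 75.2, 80.6 and 52.8 with MSC-CM and 102, 92.3 and 124 untreated. As for IFNG, every PRP lysate and ACS library lay above the other 9. IRF8, also a regulator of IL12B in myeloid cells, measured 697, 698 and 517 CPM with PRP lysate and 610, 706 and 786 with ACS, against 308, 289 and 220 with IL-1ß, 260, 335 and 294 with MSC-CM and 447, 383 and 623 untreated. Its highest untreated library therefore lay within the PRP lysate and ACS ranges. IRF8 rose while IL12B stayed at 0 in every PRP lysate and ACS library.

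CXCL11 measured 2.42, 13.3 and 7.67 CPM with PRP lysate, below the 26.7, 29.7 and 24.8 CPM of IL-1ß, and it was 100, 65.6 and 55.7 CPM untreated. The chemokine CXCL10 was called lower with IL-1ß than untreated (-1.56 ± 0.30, limma adjusted p = 0.0495), at 67.4, 48.2 and 32.7 CPM against 175, 165 and 98.8. That call was lost in 10 of 16 alternatives, with an adjusted p of up to 0.531: with a pseudocount of 0.1 CPM, without the filter, with the 2 groups fitted alone, with the replicate number as a block, and without any 1 of the 6 libraries compared, the last at log2 fold changes between -1.82 and -1.30, while without the pair of libraries that stood apart it was -1.30 and called (limma adjusted p = 0.0131). The CXCL11 call was lost in 3 of 16 alternatives: without IL-1ß replicate 2 (limma adjusted p = 0.0527), with the replicate number as a block (0.0872) and with the 2 groups fitted alone (0.285).

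Against MSC-CM, PRP lysate libraries were higher in CD40 (1.28 ± 0.18, limma adjusted p = 0.00146) and IRF8 (1.10 ± 0.20, limma adjusted p = 0.00654) and lower in IDO1, the tryptophan-degrading enzyme (-1.01 ± 0.19, limma adjusted p = 0.00766). With the replicate number as a block CD40 remained called (limma adjusted p = 0.023) and IRF8 and IDO1 did not (0.0602 and 0.0596). The IDO1 call was lost in 8 of 16 alternatives, under RLE scaling (-0.94), TMM scaling (-0.96), edgeR (-0.91), DESeq2 (-0.88), the block, the 2 groups fitted alone (adjusted p = 0.105), and without MSC-CM replicate 2 (-0.99) or PRP lysate replicate 2 (-0.74). ACS libraries were higher in CD40 (1.51 ± 0.18, limma adjusted p = 0.00143), IRF8 (1.24 ± 0.20, limma adjusted p = 0.00635) and ICAM1 (1.05 ± 0.14, limma adjusted p = 0.0024) than MSC-CM libraries. That ICAM1 call was lost in 2 of 15 alternatives, under 2-fold at 0.998 without MSC-CM replicate 3 and 0.97 without ACS replicate 2. All genes were called at 2.61% for PRP lysate and 1.23% for ACS against MSC-CM. No gene of the list was called for MSC-CM against IL-1ß or for PRP lysate against ACS by limma, edgeR or DESeq2, where 2 and 1 had an unadjusted p of at most 0.05.

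**Figure D4:**
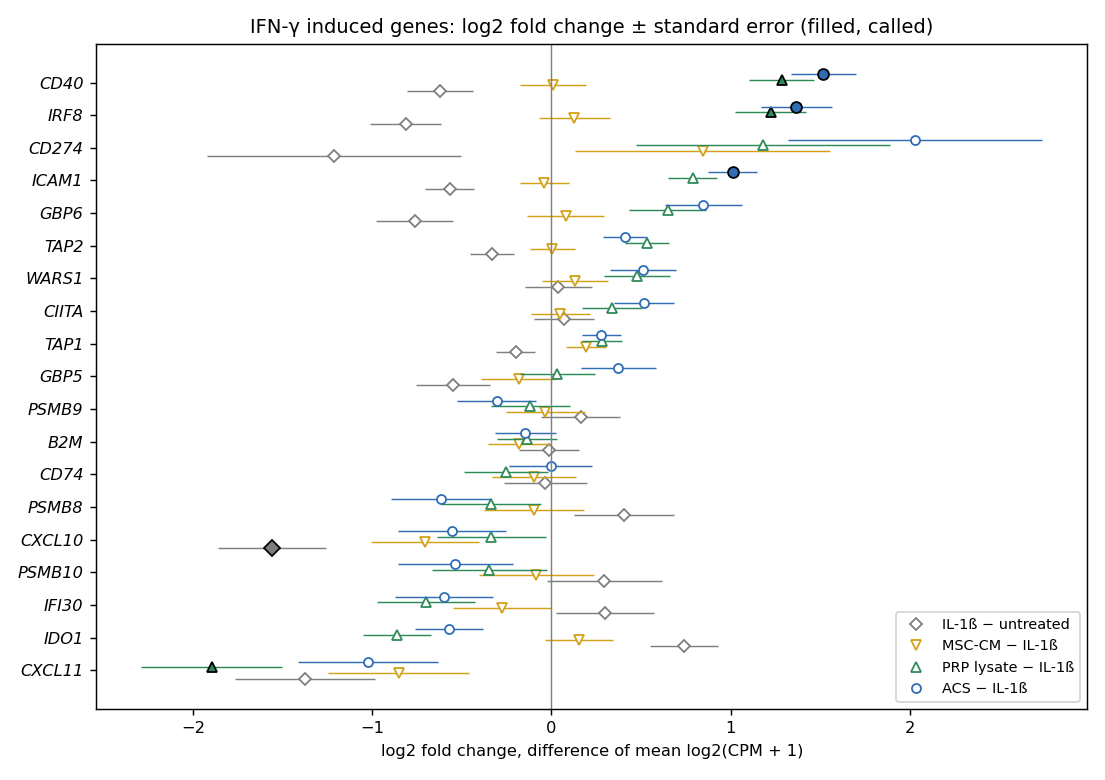
Log2 fold change (x axis, difference of mean log2(CPM + 1)) ± standard error of the 19 tested IFN-γ induced genes in 4 comparisons, ordered by the PRP lysate difference; filled symbols are called. CD40 and IRF8 are filled on the right for PRP lysate and ACS and ICAM1 for ACS, CXCL11 is filled on the left at -1.90 for PRP lysate and CXCL10 at -1.56 for IL-1ß against untreated.

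Of 9 other chains and signalling genes of the IL-12 family 1 was called by limma, where 3.09% of all genes were: IL27, the partner of EBI3 in IL-27, fell with PRP lysate against IL-1ß (-1.33 ± 0.35, limma adjusted p = 0.0486), at 5.24, 11.7 and 14.5 CPM against 23.2, 21.8 and 34.6. That call was lost in 12 of 16 alternative analyses, edgeR's quasi-likelihood test on recovered reads among them (adjusted p = 0.0616). It was lost without IL-1ß replicate 1, 2 or 3 or PRP lysate replicate 1 or 2 (adjusted p between 0.0624 and 0.111), and without the pair of libraries that stood apart the difference was -0.74 (limma adjusted p = 0.168).

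Of 10 tested co-inducers of IFNG and their receptors, 1 was called by limma and edgeR, IL18BP, the secreted inhibitor of IL-18, for PRP lysate against MSC-CM, where limma called 2.61% of all genes. DESeq2 called 1 in that comparison and also 1 for ACS against IL-1ß. IL18BP measured 2589, 2719 and 2373 CPM with PRP lysate against 1302, 1237 and 1048 with MSC-CM, a difference of 1.10 ± 0.21 (limma adjusted p = 0.00807). That limma call was lost with the replicate number as a block (limma adjusted p = 0.0596) and without MSC-CM replicate 3 (limma adjusted p = 0.0539). Of 5 tested transcription factors of type 1 lymphocytes 0 were called by limma and edgeR and 1 by DESeq2, for PRP lysate against MSC-CM, with 0 to 3 per comparison at an unadjusted p of at most 0.05. Of 14 regulators of IL12B transcription IRF8 alone was called by limma, for PRP lysate and ACS against IL-1ß and MSC-CM, while DESeq2 called 2 for ACS against IL-1ß.

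The genes whose profile over the 15 libraries was most like that of IFNG were TP53I11 (Pearson r = 0.94 on log2(CPM + 1)), RGS16 (r = 0.93), a regulator of G protein signalling, and CSF2 (r = 0.92), the cytokine GM-CSF. CSF2 averaged 76.1 CPM with PRP lysate and 39.7 with ACS, against 21.4 with IL-1ß, 17.2 with MSC-CM and 25.1 untreated, the same order of PRP lysate over ACS over the rest. IFNGR2 was most like FLOT2 (r = 0.93), ZNF358 (r = 0.93) and PAQR8 (r = 0.89), and IFNGR1 was most like TIMM9 (r = 0.84), EIF2B3 (r = 0.78) and SLC46A2 (r = 0.78). EBI3 was most like ACP5 (r = 0.92), SEMA6B (r = 0.92) and GNAI2 (r = 0.91), and IL23A like GIMAP6 (r = 0.91), ALPK2 (r = 0.83) and KHNYN (r = 0.83).

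The receptor and transcription factor genes had close neighbours too. IL12RB1 followed RASAL3 and SKAP1, the second a T cell adaptor (r = 0.98 and 0.97), with FCHO1 at r = 0.97. IL12RB2 followed DDHD2 (r = 0.98), DPP4 (r = 0.97), the surface peptidase CD26 of T cells, and S100PBP (r = 0.96), and TBX21 followed WARS1 (r = 0.93), TAGLN2 (r = 0.93) and NFKB2 (r = 0.92). For IL12A the closest were MTMR2, GATAD1 and OAT (r = 0.93 each), but these fell to 0.66, 0.65 and 0.53 over the 13 libraries without the pair that stood apart. Among the members, IFNG ran opposite to EBI3 (r = -0.79) and IFNGR2 (r = -0.75), and IFNGR1 ran opposite to IL23A (r = -0.79). These correlations describe 15 libraries that share conditions and scaling. Those with other genes were chosen as the highest of all tested genes with a symbol, and those between members are the most negative of the member pairs.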

How the data were processed

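Polyadenylated RNA of 15 equine macrophage libraries was sequenced, in 5 groups of 3 taken from the labels. The authors trimmed reads with cutadapt, aligned them to EquCab3.0 (STAR 2.7.3), made HTSeq gene counts in Partek Flow and deposited CPM per gene. The strand setting is not given in the sources used here. Multiples of the CPM of 1 read gave whole reads for 99.7% of values (tolerance 0.1 read), and 28410735 to 47894071 reads per library (median 37215812). CPM were transformed as log2(CPM + 1), genes averaging 1 CPM or more were kept (11628 of 16932), and all 15 libraries were fitted with limma 3.58.1 (R 4.3.3, trend) with Benjamini-Hochberg adjustment over all genes tested. Fold changes on this scale understate the change of low genes. edgeR 4.0.16 and DESeq2 1.42.0 on the recovered reads were alternatives, as were other scalings, filters, pseudocounts and left-out libraries. The fits were tested on simulated data.

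Members and gene lists were chosen with earlier results of these data known, and which members' fold changes are printed was chosen after their values were seen. Beside the members, genes of the pathway lists are named where called, at most 4 per list and comparison by size, together with the 3 genes most correlated with each tested member. Cell type markers are outside this rule: they are given by their sums, and those named were chosen after their values were seen, so not every marker called is named. The 3 same-numbered pairs of PRP lysate and MSC-CM libraries deviated together from their group means (r = 0.63, 0.26 and 0.42). Differently numbered libraries did so as well, MSC-CM replicate 2 with PRP lysate replicate 3 (r = 0.39) and MSC-CM replicate 3 with PRP lysate replicate 2 (r = 0.47). The correlations therefore do not show that the numbers, which come from the sample titles, pair these libraries. In the other comparisons of numbered groups, some same-numbered libraries deviated in opposite directions. The numbers of ACS, whose titles carry names, come from accession order. Stromal and B cell markers were summed as further checks, and stromal markers reached at most 2.59 CPM. B cell markers summed to 12.0 to 28.6 CPM with PRP lysate and 13.7 to 19.4 with ACS. They summed to 25.2 to 48.1 CPM with IL-1ß, 23.0 to 30.1 with MSC-CM and 15.6 to 22.9 untreated. Against IL-1ß, limma and edgeR called 0 of them with PRP lysate or ACS and DESeq2 called 1 with each. The part of this shift in the IFNG difference was not tested. The list of IFN-γ signalling genes is not reported here.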

Additional observations from a re-analysis of the deposited data

How the results depend on the processing

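The number of members called, IFNG alone against IL-1ß and MSC-CM for both PRP lysate and ACS, changed as follows. For PRP lysate against IL-1ß it rose from 1 to 2 with no fold threshold (IFNGR2 added) or with an unadjusted p (IL23A added), and to 3 in the 13 libraries without IL-1ß replicate 3 and PRP lysate replicate 1 (IL23A and EBI3 added), a setting chosen after seeing the data. Leaving out 1 library at a time gave 1 to 2. For ACS against IL-1ß it fell to 0 after RLE or TMM scaling, with only the 2 groups fitted and in the 13 libraries, and ranged from 0 to 2 when 1 library was left out. For PRP lysate against MSC-CM it was 2 with an unadjusted p and in the 13 libraries, and 1 to 2 when 1 library was left out. For ACS against MSC-CM it was 0 with no filter and 0 to 1 when 1 library was left out. For PRP lysate against ACS it was 1 with an unadjusted p (IL23A). The F test passed 3 members in DESeq2 (IFNGR2 and EBI3 added), 5 in the 13 libraries (IL23A and IL12RB1 besides) and 1 to 2 when 1 library was left out. Apart from the values' own construction (fewer libraries or groups), the cause was not tested.

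IFNG changed sign between IL-1ß and untreated, to 0.051 in the 13 libraries and between -0.23 and 0.12 when 1 library was left out. Between MSC-CM and IL-1ß it was -0.14 with RLE, -0.11 with TMM, -0.081 in edgeR, -0.12 in DESeq2 and -0.091 in the 13 libraries, and between -0.20 and 0.14 when 1 library was left out.

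The replicate block was fitted over the untreated, IL-1ß, MSC-CM and PRP lysate libraries together, with effects of the number shared by these groups. With this block, the members called stayed at 0, 0, 1 and 1 for IL-1ß against untreated, MSC-CM against IL-1ß, PRP lysate against IL-1ß and PRP lysate against MSC-CM. The genes called went from 34, 0, 359 and 304 to 6, 0, 197 and 171. Against IL-1ß, where some same-numbered libraries deviated in opposite directions, the block gave CXCL11 a limma adjusted p of 0.0872 and IL27 one of 0.122. For IL-1ß against untreated it gave CXCL10 a limma adjusted p of 0.281. Of 18 same-numbered pairs, 11 correlated above 0.1 (range -0.77 to 0.63).

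Over all alternatives the genes called of all genes ranged from 0 to 183 for IL-1ß against untreated, 0 to 42 for MSC-CM against IL-1ß, 56 to 684 for PRP lysate and 48 to 705 for ACS against IL-1ß, 167 to 562 and 53 to 324 for these against MSC-CM, 0 to 96 for PRP lysate against ACS (11 in the reported fit), and 392 to 2301 in the F test (628). The reported fit called 257 for ACS against IL-1ß and 143 against MSC-CM. With RLE the share of higher calls for ACS against MSC-CM moved from 48.3% to 63.5%, and that for ACS against IL-1ß moved from 55.6% to 47.1%. Depth limited IL12B alone.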
